A study of Homo sapiens with 16 samples.

Results

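DDR1-IN-1, a small molecule inhibitor of the receptor tyrosine kinase DDR1 (written DDR1i below), was compared with vehicle in MCF10A cells that had been given collagen. MCF10A is a human line of breast epithelial cells that became immortal in culture without turning tumorigenic. The comparison took in every library labelled as treated with Collagen 1 and DDR1i (4 libraries) and every library labelled as treated with Collagen 1 alone (4 libraries), 8 of the 16 RNA-seq libraries of the study. Cells received 2 µM DDR1i or DMSO for 24 h, and then a medium with 0.05 mg/mL collagen in which the inhibitor or DMSO was kept for another 24 h, so that the inhibitor was present for 48 h in all. Of the other libraries, 4 received the RUNX-CBFβ inhibitor AI-10-104 (RUNXi) with collagen on the same schedule and 4 were vehicle controls with media changes and no collagen. All cells grew in a medium with insulin, EGF, hydrocortisone, cholera toxin and horse serum. No library received DDR1i without collagen, and all libraries came from 1 cell line. The authors removed collagen replicate 3 as an outlier, and the values below are without that library unless it is named, with the main counts and the genes that passed also given with it.

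DDR1 differs from most receptor tyrosine kinases in that its ligand is a matrix protein, the triple helix of fibrillar and basement membrane collagens. Collagen binding leads to slow and lasting phosphorylation of the receptor, which is found mainly in epithelial cells, and docks adaptors such as SHC1 and NCK proteins. In the mammary gland DDR1 is known for roles in ductal growth and epithelial differentiation, and DDR1-IN-1 binds its kinase domain and holds it in an inactive form. The question put to the libraries here is which genes change in collagen-treated cells when this kinase is inhibited.

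Gene expression was recorded as the number of reads counted per gene, with totals of 17570707 to 27695778 counts per collagen library and 16173156 to 24133596 counts per DDR1i library. Levels are given as CPM, counts normalized to a common library size with the TMM factors of edgeR, and because CPM is not divided by transcript length, levels of different genes are not compared. Nothing in the labels says that replicates came from separate cultures, so that p-values measure only the spread between these libraries, which may be technical. The cells carried epithelial genes: each of 11 basal and myoepithelial markers exceeded 1 CPM in at least 1 of the 8 libraries (summed level 15720 to 20980 CPM with collagen and 11300 to 14770 CPM with DDR1i). Such a sum follows the most abundant genes, and 7 of these 11 had a fold change above 0 (median log2 fold change 0.18). *ITGA6* and *ITGB4* passed the test below as higher and *KRT14* as lower, and with collagen replicate 3 only *KRT14* passed. Of 14 luminal markers, *PGR*, *KIT* and *LTF* were at 0 counts in all 8 libraries and *ELF5* stayed below 1 CPM (sum 3084 to 4061 CPM and 2838 to 3472 CPM). Markers of other cell types were low, with sums of 28.1 to 45.4 and 29.6 to 42.3 CPM for 8 fibroblast markers (*COL3A1* and *PDGFRA* at 0), 0.401 to 3.98 and 1.07 to 2.97 CPM for 5 endothelial markers (*CDH5* at 0) and 22.7 to 36.7 and 21.4 to 39.2 CPM for 6 immune markers (*PTPRC*, *CD3E* and *LYZ* among those at 0). No member of these 3 lists passed the test, and fewer cells of a type cannot be told apart from less RNA per cell in such bulk libraries.

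*DDR1* itself (chromosome 6, 30844198 to 30867933, GRCh37) was measured at 126.5, 130, 151 and 129 CPM in collagen replicates 1 to 4 and at 118.5, 108, 134 and 147 CPM in DDR1i replicates 1 to 4. The groups overlapped, and the log2 fold change was -0.02 (standard error 0.13, adjusted p = 0.966, quasi-likelihood test of edgeR, Benjamini-Hochberg adjusted) without collagen replicate 3 and -0.09 (adjusted p = 0.895, edgeR as above) with it. A kinase inhibitor acts on the protein, so this level says nothing about target engagement, which the counts do not measure. *DDR2*, the other collagen-binding receptor of the family, lay between 0 and 0.673 CPM in the 8 libraries and did not reach the count filter.

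Without collagen replicate 3, 229 genes were higher and 105 lower with DDR1i than with collagen alone, 1.69% and 0.775% of the 13548 genes tested and 2.47% together (adjusted p under 0.05, quasi-likelihood test of edgeR, Benjamini-Hochberg adjusted). The median log2 fold change was 0.72 among the genes that were higher and -0.61 among those that were lower, and 39 and 8 of them changed by 2-fold or more. With collagen replicate 3 included, 6 genes were higher and 3 lower, 0.0674% of 13361 genes, and all 9 were among the 334 found without it. The direction of the fold change was kept for 334 of the 334 genes. The fits share all libraries but collagen replicate 3 and the genes were picked in 1 of them, so this could hardly come out otherwise. The same holds for directions in the fits below that leave out 1 library. The number of genes rested on single libraries as well: 60 passed without DDR1i replicate 3, 96 without DDR1i replicate 4, 184 without DDR1i replicate 2, 87 without collagen replicate 4 and 662 without DDR1i replicate 1. Of the 89 genes that met the rule for naming and passed, 54 missed the threshold without DDR1i replicate 3, 50 without collagen replicate 4, 40 without DDR1i replicate 4, 23 without DDR1i replicate 2 and 2 to 13 without any other library, and 0 changed direction. In the fits with collagen replicate 3, 2 genes passed without DDR1i replicate 3 or without collagen replicate 2, 4 without DDR1i replicate 4, and 5 without DDR1i replicate 2 or without collagen replicate 1.

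The 9 genes that passed both with and without collagen replicate 3 encode 2 keratins (*KRT14* and *KRT16*) and the MAP kinase phosphatase *DUSP1*, which fell, and the transcription factor *EGR1*, the receptor kinase *AXL*, the metalloprotease *ADAM8*, the collagen and laminin binding receptor *ANTXR2*, the calcium pump *ATP2B4* and *FAM167A*, which rose. For 8 of them the 4 DDR1i libraries lay beyond all 4 collagen libraries by a clear gap, and for *ATP2B4* the lowest DDR1i library (50.2 CPM) stood just above collagen replicate 3 (50.1 CPM).

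Keratin 14 pairs with keratin 5 in the intermediate filaments of basal epithelial cells, and keratin 16 is a keratin of stressed and activated epithelium. *KRT14* (chromosome 17, 39738531 to 39743147) stood at 3393, 3323, 3348 and 4755 CPM in collagen replicates 1 to 4 and at 2207, 1594, 2246 and 2188 CPM in DDR1i replicates 1 to 4. Every DDR1i library was below every collagen library, replicate 3 included. Its log2 fold change was -0.90 (standard error 0.13, adjusted p = 0.00123, quasi-likelihood test of edgeR, Benjamini-Hochberg adjusted) without collagen replicate 3 and -0.86 (standard error 0.13, adjusted p = 0.00768, edgeR as above) with it. *KRT16* (chromosome 17, 39766030 to 39772151) stood at 86.5, 93.3, 62.8 and 83.5 CPM with collagen and at 38.5, 31.5, 39.1 and 42.0 CPM with DDR1i. Collagen replicate 3 was its lowest collagen library and was still above the highest DDR1i library. The log2 fold change was -1.22 (standard error 0.17, adjusted p = 0.00112, edgeR as above) and -1.12 with collagen replicate 3 (standard error 0.18, adjusted p = 0.00768, edgeR as above). Vehicle controls without collagen held 3269 to 4173 CPM of *KRT14* and 63.2 to 112 CPM of *KRT16*, overlapping collagen alone and above every DDR1i library. Reads of these genes can be split with close paralogs and pseudogenes, since how multimapped reads were counted is not given in the sources used here. *KRT14* passed in all 22 fits that left out 1 library, 11 with and 11 without collagen replicate 3, and *KRT16* in 20, missing the threshold with collagen replicate 3 when DDR1i replicate 3 or collagen replicate 2 was left out (highest adjusted p = 0.058, edgeR as above).

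*DUSP1* and *EGR1* are both immediate early genes, transcribed within minutes of growth factor or stress signals: DUSP1 removes phosphate from ERK, JNK and p38 kinases, and EGR1 is a zinc finger transcription factor downstream of ERK. They moved in opposite directions. *DUSP1* (chromosome 5, 172195099 to 172198198) stood at 449, 364, 428 and 416 CPM with collagen and at 268, 210, 264 and 220 CPM with DDR1i. The groups were separate, and collagen replicate 3 lay among the other collagen libraries. The log2 fold change was -0.77 (standard error 0.13, adjusted p = 0.0028, quasi-likelihood test of edgeR, Benjamini-Hochberg adjusted) and -0.79 with collagen replicate 3 (standard error 0.12, adjusted p = 0.00768, edgeR as above), and *DUSP1* passed in all 22 fits that left out 1 library. *EGR1* (chromosome 5, 137801168 to 137804992) stood at 109, 72.3, 83.0 and 48.9 CPM with collagen and at 244, 154, 389 and 283 CPM with DDR1i. All DDR1i libraries were above all collagen libraries, with the widest spread within a group of the 9 genes on the log2 scale. The log2 fold change was 1.80 (standard error 0.36, adjusted p = 0.034, edgeR as above) and 1.76 with collagen replicate 3 (standard error 0.27, adjusted p = 0.0331, edgeR as above). It passed in 6 of 11 fits that left out 1 library without collagen replicate 3 and in 2 of 11 with it. Without collagen replicate 3, the 5 fits in which it missed the threshold were those without DDR1i replicate 3, DDR1i replicate 4, RUNXi replicate 4, collagen replicate 2 or collagen replicate 4. Controls without collagen held 212 to 416 CPM of *DUSP1*, overlapping the DDR1i libraries, and 39.2 to 66.5 CPM of *EGR1*, below them.

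The promoters of this pair are shown because the genes belong to the same early response and moved apart. Each line gives the 250 bases before the transcription start (RefSeq, GRCh38.p14), 5′ to 3′ on the strand of the gene, for *EGR1* at chr5:138465229-138465478 (plus strand) and for *DUSP1* at chr5:172771196-172771445 (minus strand). Capitals mark serum response elements (CArG boxes, bound by serum response factor) in *EGR1* and the cyclic AMP response element TGACGTCA in *DUSP1*.
EGR1: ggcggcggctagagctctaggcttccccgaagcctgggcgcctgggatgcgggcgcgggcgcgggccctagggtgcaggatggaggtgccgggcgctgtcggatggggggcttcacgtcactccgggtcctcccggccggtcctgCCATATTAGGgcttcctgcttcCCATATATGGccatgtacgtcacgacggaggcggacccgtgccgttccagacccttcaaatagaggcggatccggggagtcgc
DUSP1: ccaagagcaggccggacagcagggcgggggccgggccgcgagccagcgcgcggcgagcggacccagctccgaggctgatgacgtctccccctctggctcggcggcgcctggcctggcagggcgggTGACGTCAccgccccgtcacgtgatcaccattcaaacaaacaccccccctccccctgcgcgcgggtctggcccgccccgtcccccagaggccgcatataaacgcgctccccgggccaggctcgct
The *EGR1* window held 2 CArG boxes, starting 105 and 83 bases before the start, and no TGACGTCA, whereas the *DUSP1* window held 1 TGACGTCA, starting 125 bases before the start, and no CArG box. Searched on both strands, a CArG box was present in 1.16% and TGACGTCA in 1.65% of all 35116 windows. Windows of *ATP2B4*, *ADAM8*, *AXL* (2 starts) and *ANTXR2* (2 starts) held neither. The RUNX core TGTGGT was found in 1 *ANTXR2* window and in none of the others, against 11% of all windows, and the TEAD motif GGAATG in the *ATP2B4* window and in 1 *AXL* window, against 11.9%. The AP-1 motif TGANTCA (6.57% of all windows) was in none of them. Only the exact letters TGACGTCA were searched. Partial matches such as CGTCA, which both printed windows hold in small letters, were not marked, so the *EGR1* window is not shown to lack cyclic AMP response elements. These are matches of letters in a short window and not measured binding sites.

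AXL is a receptor tyrosine kinase for the ligand GAS6 and a well known target of YAP and TEAD. It stood at 82.2, 110, 120.5 and 93.4 CPM in collagen replicates 1 to 4 and at 153, 179, 190 and 157 CPM with DDR1i (chromosome 19, 41725128 to 41767671). The DDR1i libraries were all higher, and collagen replicate 3 was the highest collagen library. The log2 fold change of *AXL* was 0.83 (standard error 0.13, adjusted p = 0.00142, quasi-likelihood test of edgeR, Benjamini-Hochberg adjusted) and 0.74 with collagen replicate 3 (standard error 0.12, adjusted p = 0.014, edgeR as above). ADAM8 is a membrane metalloprotease that sheds surface proteins. *ADAM8* (chromosome 10, 135075924 to 135090372) rose from 13.8, 12.3, 15.7 and 12.1 CPM to 23, 23, 37.9 and 28.1 CPM, again with no overlap. Its log2 fold change was 1.13 (standard error 0.20, adjusted p = 0.00496, edgeR as above) and 1.05 with collagen replicate 3 (standard error 0.18, adjusted p = 0.0191, edgeR as above). ANTXR2, also called CMG2, binds collagen IV and laminin and is an anthrax toxin receptor. *ANTXR2* (chromosome 4, 80822300 to 81046608) rose from 36.2, 30.4, 29.0 and 31.7 CPM to 47.7, 62.4, 58.1 and 60.6 CPM. Collagen replicate 3 was its lowest collagen library, and the log2 fold change was larger with that library (0.84, standard error 0.14, adjusted p = 0.014) than without it (0.80, standard error 0.15, adjusted p = 0.00754, edgeR as above for both).

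ATP2B4 is a plasma membrane pump that moves calcium out of the cell. *ATP2B4* (chromosome 1, 203595960 to 203713209) stood at 31.4, 27.5, 50.1 and 26.7 CPM with collagen and at 50.2, 67.8, 67.8 and 78.4 CPM with DDR1i, and collagen replicate 3 lay closer to the DDR1i libraries than to the other collagen libraries. The log2 fold change fell accordingly from 1.21 (standard error 0.16, adjusted p = 0.000871, quasi-likelihood test of edgeR, Benjamini-Hochberg adjusted) to 0.96 with collagen replicate 3 (standard error 0.18, adjusted p = 0.0331, edgeR as above). FAM167A was linked in genetic studies to autoimmune disease and activates noncanonical NF-κB signalling. *FAM167A* (chromosome 8, 11278985 to 11333417) stood at 44.3, 36.8, 47.2 and 37.5 CPM with collagen and at 71.7, 65.2, 83.0 and 65.6 CPM with DDR1i, with no overlap. Its log2 fold change was 0.85 (standard error 0.16, adjusted p = 0.00595, edgeR as above) and 0.78 with collagen replicate 3 (standard error 0.15, adjusted p = 0.0331, edgeR as above). In the fits without collagen replicate 3, each of *AXL*, *ADAM8*, *ANTXR2*, *ATP2B4* and *FAM167A* passed when any 1 of the 11 libraries was left out. With that library they were less stable: *AXL*, *ADAM8* and *ANTXR2* passed in 7 of 11 such fits, *FAM167A* in 3 and *ATP2B4* in 2, and each of the 5 missed the threshold without DDR1i replicate 3 and without collagen replicate 2 (highest adjusted p = 0.278, edgeR as above). Restricting the fit to the 2 groups with all 8 libraries left *KRT16* (adjusted p = 0.0141) and *DUSP1* (adjusted p = 0.0445) past the threshold and the other 7 at adjusted p-values of 0.0599 to 0.189 (edgeR as above). By DESeq2 with collagen replicate 3 all 9 passed, the highest adjusted p being 0.000936.

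**Figure D1:**
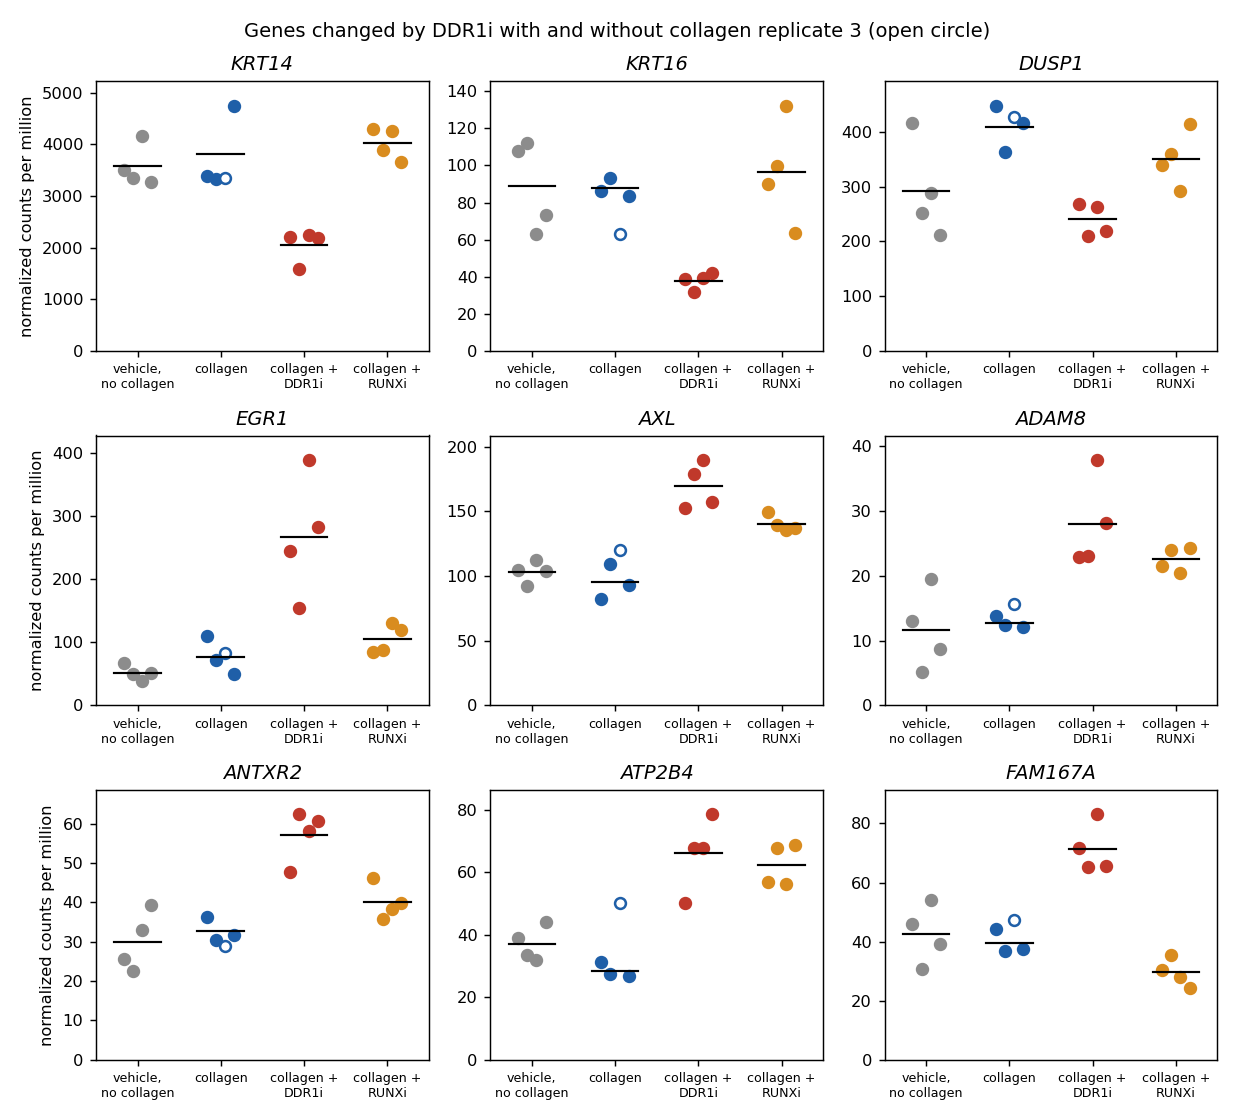
Normalized counts (CPM, linear axis from 0) of the 9 genes that passed with and without collagen replicate 3, in the 16 libraries by group. Points are libraries, the open circle is collagen replicate 3, and bars are group means (that library left out). The 4 DDR1i libraries lie below all collagen libraries for KRT14, KRT16 and DUSP1 and above all of them for the other 6 genes.

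Collagen replicate 3 lay on the side of the DDR1i libraries for most of the genes found without it. It was above the other 3 collagen libraries for 223 of the 229 genes that were higher with DDR1i and below them for 100 of the 105 that were lower. Over all 13548 tested genes it was above the other 3 for 3997 and below them for 3542. The 229 and 105 genes were picked with collagen replicate 3 left out, for a gap between the other 3 and DDR1i. Such a choice alone tends to place a left-out collagen library toward DDR1i, and all tested genes were not picked in this way. How much of these counts it makes was not tested. It fell within the range of the 4 DDR1i libraries for 173 of the 229 and for 72 of the 105 genes, and for 9591 of all 13548, so that this count did not set the called genes apart. The 4 DDR1i libraries lay beyond all 4 collagen libraries for 33 of the higher and 25 of the lower genes. Over all tested genes this was so for 413 (3.05%), 206 above and 207 below.

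**Figure D2:**
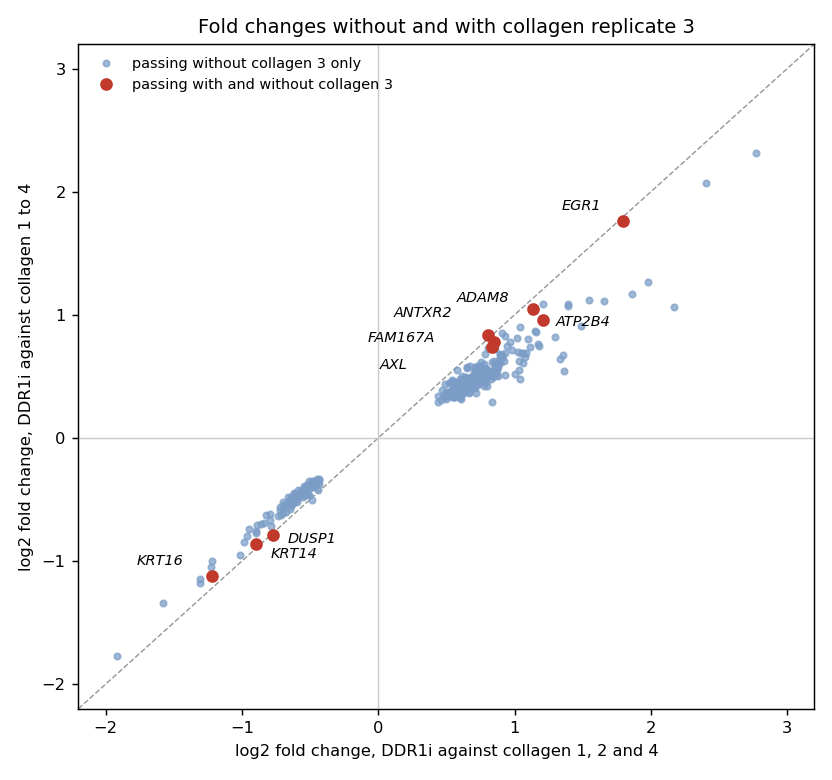
Log2 fold change of DDR1i against collagen for the genes that passed without collagen replicate 3, computed without (x axis) and with (y axis) that library. The dashed line marks equal values, 3 genes with a value above 3.2 on the x axis are not drawn, and the 9 genes in red passed in both fits. Both axes use the same DDR1i libraries, and most blue points lie nearer to 0 on the y axis than on the x axis.

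A few keratin, squamous differentiation and S100 genes fell with DDR1i, and most members of these lists did not pass. Of 15 tested keratins, 14 had a fold change below 0 (median log2 fold change -0.57, against 0.0037 over all genes tested), and *KRT14* and *KRT16* passed. *KRT5*, the partner of *KRT14*, had a log2 fold change of -0.31 (adjusted p = 0.153) and *KRT17* one of -0.91 (adjusted p = 0.118), neither past the threshold (edgeR as above). Among 25 tested genes of squamous differentiation the median log2 fold change was -0.81, 19 were below 0 and 3 passed. *TGM1*, the transglutaminase that crosslinks the cornified envelope, fell from 18.7, 19.5, 14.9 and 17.4 CPM to 10.8, 10.9, 6.18 and 8.77 CPM (adjusted p = 0.0167). The groups did not overlap. *CSTA*, which encodes the protease inhibitor cystatin A of the cornified envelope, fell from 134, 122, 75 and 181 CPM to 93.4, 70.6, 70.0 and 81.1 CPM (adjusted p = 0.00401), and collagen replicate 3 lay within the DDR1i libraries. *AQP3*, a channel for water and glycerol in epidermis, had 28.6, 26.7, 9.01 and 13.9 CPM with collagen and 8.98, 10.8, 5.69 and 5.30 CPM with DDR1i, a log2 fold change of -1.58 (adjusted p = 0.00881). With collagen replicate 3 these 3 genes did not pass (adjusted p = 0.127 for *TGM1*, 0.386 for *CSTA* and 0.269 for *AQP3*, all by the quasi-likelihood test of edgeR, Benjamini-Hochberg adjusted). Of 14 tested S100 genes, which encode small calcium-binding proteins, 11 were below 0 (median -0.33) and 4 passed (28.6%), while 0 passed with collagen replicate 3. Of all genes tested 0.775% were lower, and of those with transcripts of 1733 bases or fewer 2.08% (median -0.20). With the length trend removed 2 of the 14 were lower, *S100A8* and *S100A14*, at a list median of -0.20. *S100A8* and *S100A9*, whose products form calprotectin, had log2 fold changes of -1.30 (adjusted p = 0.0243) and -0.90 (adjusted p = 0.0206), *S100P* one of -1.92 (adjusted p = 0.0351) and *S100A14* one of -0.64 (adjusted p = 0.00621, edgeR as above). *S100P* stood at 7.46, 6.57, 4.12 and 5.97 CPM with collagen and at 1.57, 1.31, 3.2 and 0.946 CPM with DDR1i, so that the groups were separate at a low level.

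Among 20 tested AP-1 subunits and immediate early genes, *EGR1* and *SPRY4* rose and *DUSP1* fell (median log2 fold change 0.24). SPRY4 is a feedback inhibitor of receptor tyrosine kinase signalling that is itself induced by ERK. *SPRY4* stood at 33.8, 32.3, 49.8 and 44.4 CPM with collagen and at 63.5, 64.6, 69.2 and 69.6 CPM with DDR1i. No collagen library, replicate 3 included, reached the lowest DDR1i library, and the log2 fold change was 0.85 (standard error 0.15, adjusted p = 0.00428) without and 0.73 (adjusted p = 0.062) with collagen replicate 3 (edgeR as above). *FOS* (log2 fold change -0.01, adjusted p = 0.99), *JUNB* (-0.06, adjusted p = 0.91) and *ETV5* (-0.02, adjusted p = 0.985) were among the 17 tested members that did not pass, and like *FOSL1* below and *KRT5* and *KRT17* above they were picked after their values had been seen. The AP-1 subunit *FOSL1* had a log2 fold change of 0.65 that missed the threshold (adjusted p = 0.0806, edgeR as above) and was among the 40 genes that DESeq2 found with collagen replicate 3 (log2 fold change 0.67, adjusted p = 0.0411). Of 11 EGF receptor family members and ligands 0 passed. *EGFR* spanned 47.6 to 230 CPM with collagen and 115 to 241 CPM with DDR1i (adjusted p = 0.0806), and *MYC* stood at 437 to 591 and 393 to 430 CPM (log2 fold change -0.27, adjusted p = 0.237, quasi-likelihood test of edgeR, Benjamini-Hochberg adjusted).

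Of the protease and extracellular matrix lists, 1 protease gene and 9 matrix genes rose with DDR1i, none of which passed with collagen replicate 3. *PLAU*, which encodes the urokinase plasminogen activator, was 67.3, 53.3, 80.5 and 94.6 CPM with collagen and 115, 113, 165 and 145 CPM with DDR1i. The DDR1i libraries were all above the collagen libraries, and the log2 fold change was 0.90 (standard error 0.19, adjusted p = 0.0129) without and 0.85 (adjusted p = 0.062) with collagen replicate 3 (edgeR as above). It was the 1 member of 22 tested plasminogen activators, metalloproteases and inhibitors that passed (list median 0.43). Of 20 tested collagens and basement membrane genes made by the cells, 18 were above 0 (median 0.57) and 6 rose (30%). Of all genes tested 1.69% were higher, and of those with transcripts of 5749 bases or more 6.38%. With the length trend removed 2 of the 20 were higher (median 0.32), *COL4A1* and *COL4A2*. The collagen IV genes *COL4A1* (58.6, 66.6, 145 and 43.4 CPM with collagen, 84.6, 104, 166 and 106 CPM with DDR1i) and *COL4A2* (188, 189, 321 and 137 CPM, then 242, 282, 445 and 307 CPM) had log2 fold changes of 1.03 (adjusted p = 0.00621) and 0.90 (adjusted p = 0.0104). For both, collagen replicate 3 lay within the DDR1i libraries. With it, 0 of these 6 genes passed, *COL4A1* at an adjusted p of 0.651 and *COL4A2* at 0.493 (all by the quasi-likelihood test of edgeR, Benjamini-Hochberg adjusted). Controls without collagen overlapped the DDR1i libraries for *COL4A1* (83.2 to 113.6 CPM) and *COL4A2* (212.6 to 410.5 CPM) and lay below them for *PLAU* (38.7 to 64.9 CPM).

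The proteoglycan *VCAN* stood at 75.4, 71.1, 129 and 53.3 CPM with collagen and at 93.2, 130, 129 and 128 CPM with DDR1i (log2 fold change 0.85, adjusted p = 0.00401, and 0.457 with collagen replicate 3). Of 20 tested matricellular and secreted matrix genes 3 rose (15%, median 0.16): *TNC*, which encodes the adhesion-modulating protein tenascin C (log2 fold change 1.05, adjusted p = 0.0153), the latent TGF-β binding protein gene *LTBP2* (1.06, adjusted p = 0.0223) and *THBS1* for thrombospondin 1 (0.91, adjusted p = 0.0287), each at an adjusted p of 0.457 to 0.536 with collagen replicate 3 (edgeR as above). With the length trend removed 0 of the 20 passed (median 0.22). Hemidesmosomes anchor basal epithelial cells to laminin. Of 13 tested hemidesmosome and laminin genes, 13 were above 0 (median 0.54) and 5 rose, among them the integrin genes *ITGB4* (log2 fold change 0.58, adjusted p = 0.0226, and 0.454 with collagen replicate 3) and *ITGA6* (0.44, adjusted p = 0.0471, and 0.457 with it). Of the 13, 0 passed with collagen replicate 3 and 0 with the length trend removed (median 0.33). *ITGB4* stood at 724, 675, 966 and 656 CPM with collagen and at 867, 809, 1267 and 1151 CPM with DDR1i. Controls without collagen overlapped the DDR1i libraries for *VCAN* (90.4 to 121 CPM), *LTBP2*, *THBS1*, *ITGB4* and *ITGA6*. For *TNC* the controls (24.1 to 30.4 CPM) lay below the DDR1i libraries (37.2 to 64.2 CPM). Of 5 tested collagen receptors, *DDR1* included, 0 passed: *ITGA2* had a log2 fold change of 0.65 (adjusted p = 0.0801) and *ITGB1* one of 0.61 (adjusted p = 0.112, quasi-likelihood test of edgeR, Benjamini-Hochberg adjusted).

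Genes of the actin cytoskeleton made up a further part of the genes that were higher. Of all genes tested 1.69% were higher, and of those in the longest transcript length class (5749 bases or more) 6.38%. Of 29 tested giant linker and spectrin genes, 27 were above 0 (median log2 fold change 0.59) and 10 rose (34.5%). *UTRN*, for the dystrophin relative utrophin, stood at 10.9, 13.6, 32.2 and 8.13 CPM with collagen and at 23.5, 37.2, 31.9 and 29.7 CPM with DDR1i (log2 fold change 1.49, adjusted p = 0.0012). *AHNAK*, for a giant scaffold protein, stood at 780, 723, 1219 and 529 CPM and at 972, 1278, 1544 and 1558 CPM (0.98, adjusted p = 0.00215). In both, collagen replicate 3 lay within the range of DDR1i and the other 3 collagen libraries below it (adjusted p with that library 0.464 and 0.386, all by the quasi-likelihood test of edgeR, Benjamini-Hochberg adjusted). Of 27 ROCK, myosin and myosin phosphatase genes, 6 rose (median 0.31), among them *ROCK2*, a kinase that drives actomyosin contraction (23.8, 26.9, 54.5 and 13.3 CPM with collagen, 42.8, 63.7, 47.5 and 55.7 CPM with DDR1i, log2 fold change 1.30, adjusted p = 0.00146). *MYH9*, the nonmuscle myosin IIA heavy chain, which is known to bind DDR1, had a log2 fold change of 0.89 (adjusted p = 0.00682). The genes of the Rac activators *DOCK4* (1.55, adjusted p = 0.00123) and *DOCK5* (1.08, adjusted p = 0.0023) rose as well. They were among the 9 of 49 tested RhoGEF, RhoGAP and DOCK regulators that rose (median 0.39). The Cdc42 activator *DNMBP* rose by 1.02 (adjusted p = 0.00289). Controls without collagen overlapped the DDR1i libraries for *UTRN* (15.4 to 39.3 CPM), *AHNAK* (813 to 1279 CPM), *ROCK2* (37.2 to 78.3 CPM), *MYH9*, *DOCK4* and *DOCK5*. For *DNMBP* the controls (28.6 to 36.4 CPM) lay below the DDR1i libraries (40.0 to 47.1 CPM). With collagen replicate 3, adjusted p-values were 0.493 for *ROCK2*, 0.372 for *MYH9*, 0.197 for *DOCK4*, 0.491 for *DOCK5* and 0.113 for *DNMBP* (edgeR as above). With that library 0 members of the linker, myosin and regulator lists passed. Without it and with the length trend removed, 4 linker, 1 myosin and 3 regulator genes were higher (list medians 0.35, 0.15 and 0.23).

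Beside *ATP2B4*, the endoplasmic reticulum calcium pump gene *ATP2A2* (log2 fold change 0.48, adjusted p = 0.0363) and the IP3 receptor gene *ITPR3* (0.75, adjusted p = 0.00496) rose among 22 tested genes of calcium pumps and channels (median 0.24). They were 3 of the 22 (13.6%), and 2 genes of the list were higher with the length trend removed (median 0.12). Of 24 tested YAP, TAZ and TEAD genes and targets, 21 were above 0 (median 0.44) and 6 rose (25%). Of all genes tested 1.69% were higher, and of the longest transcript length class 6.38%. The 6 included *AXL*, the transcription factor *TEAD1* (0.73, adjusted p = 0.00993), the junctional regulator *AMOTL2* (0.79, adjusted p = 0.0117) and the membrane repair protein gene *MYOF* (0.64, adjusted p = 0.0136). With the length trend removed 2 of the 24 were higher (median 0.27), *AXL* and *MYOF*. The receptors *NOTCH1* (0.78, adjusted p = 0.00929) and *NOTCH2* (0.71, adjusted p = 0.0165) rose among 16 tested Notch genes (median 0.29), of which 0 passed with collagen replicate 3 or with the length trend removed. *NOTCH1* and *MYH9* were the 2 of 23 tested DDR1 signalling partners that passed. The atypical cadherin gene *FAT1* rose by 0.87 (adjusted p = 0.00146) among 21 cadherin and EMT genes (median 0.27), and *ZEB1* stood at 2.12 to 9.82 CPM with collagen and 5.17 to 16 CPM with DDR1i without passing (adjusted p = 0.471). Of the genes in these lists, *ATP2B4* and *AXL* also passed with collagen replicate 3, and *ATP2A2*, *ITPR3*, *TEAD1*, *AMOTL2*, *MYOF*, *NOTCH1*, *NOTCH2* and *FAT1* then had adjusted p-values of 0.454 to 0.597 (all by the quasi-likelihood test of edgeR, Benjamini-Hochberg adjusted). Controls without collagen overlapped the DDR1i libraries for each of these genes except *ATP2B4* and *AXL*, for which they lay below them. *NOTCH1* stood at 83.3 to 123 CPM in the controls and at 72.1 to 102 CPM with DDR1i.

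RUNX1 and its partner CBFβ form the transcription factor that the study links to DDR1. Its evidence in MCF10A cells is on protein: with collagen and DDR1i it reports less RUNX1 and CBFβ, and less CBFβ pulled down with RUNX1. For mRNA it reports a fall of *RUNX1*, but not of *CBFB*, in single cells of primary organoids. The counts here measure mRNA only. *RUNX1* stood at 61.0, 42.2, 57.2 and 45.4 CPM with collagen and at 53.1, 59.8, 63.7 and 69.4 CPM with DDR1i, with overlap (log2 fold change 0.31, adjusted p = 0.279), and *CBFB* at 74.7, 68.5, 67.8 and 67.7 CPM and 56.7, 64.9, 70.1 and 61.5 CPM (-0.15, adjusted p = 0.617). The adjusted p-values with collagen replicate 3 were 0.636 for *RUNX1* and 0.791 for *CBFB*. A list of 10 genes held those that the study names as RUNX1 targets, and *ABCD4*, *BCAR3* and *ZEB1*, for which it lists PCR primers. The study read the named targets in single cells of primary organoids, not in these libraries. Of these 10, 1 rose and 3 fell. *PLEC*, the cytolinker plectin of hemidesmosomes, rose from 1006, 938, 1778 and 852 CPM to 1417, 1614, 2682 and 2631 CPM (1.16, adjusted p = 0.0195). *ID1*, an inhibitor of basic helix-loop-helix factors, fell from 161, 170, 85.2 and 119 CPM to 102, 87.0, 58.4 and 60.9 CPM (-0.96, adjusted p = 0.00595). *CEBPD*, a transcription factor of growth arrest and inflammation, fell by 0.79 on the log2 scale (adjusted p = 0.0172) and the histone chaperone gene *ANP32B* by 0.45 (adjusted p = 0.0304). *DUT* missed the threshold (-0.46, adjusted p = 0.0505, and 0.483 with collagen replicate 3), and *STAT3* (0.17, adjusted p = 0.548), *ABCD4* (0.14, adjusted p = 0.828), *BCAR3* (0.17, adjusted p = 0.532) and *MYC* did not pass. With collagen replicate 3, 0 of the 10 genes passed (adjusted p of 0.454 for *PLEC*, 0.272 for *ID1*, 0.372 for *CEBPD* and 0.493 for *ANP32B*, all by the quasi-likelihood test of edgeR, Benjamini-Hochberg adjusted). *ID1* was found in each of the 11 fits that left out 1 library, *PLEC* in 10 (not without collagen replicate 4) and *CEBPD* and *ANP32B* in 7, both missing the threshold without DDR1i replicate 2, 3 or 4, *CEBPD* also without collagen replicate 1 and *ANP32B* also without collagen replicate 4.

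Some genes of amino acid supply and secretory stress fell. Of 31 tested genes of the unfolded protein and ATF4 response, 5 fell (16.1%, against 0.775% of all genes tested) and 0 rose (median log2 fold change -0.25). With the length trend removed 2 of the 31 were lower (median -0.11). *ASNS*, for asparagine synthetase, stood at 137, 97.1, 42.2 and 67.7 CPM with collagen and at 49.8, 52.0, 38.9 and 31.8 CPM with DDR1i (-1.22, adjusted p = 0.0116). Collagen replicate 3 lay within the DDR1i libraries. *PSAT1* of serine synthesis (-0.72, adjusted p = 0.0469), the cystine transporter gene *SLC7A11* (-0.79, adjusted p = 0.0491), the unfolded protein response factor gene *XBP1* (-0.62, adjusted p = 0.0166) and *HERPUD1* of protein degradation at the endoplasmic reticulum (-0.66, adjusted p = 0.0351) were the others, and with collagen replicate 3 the 5 had adjusted p-values of 0.37 to 0.5. *SLC7A11* and *AKR1C1* were the 2 of 28 tested NRF2 targets that fell (median -0.23, and 0 passed with collagen replicate 3), the latter with close paralogs that can share its reads. The fatty acid synthesis gene *ACACA* rose by 0.63 (adjusted p = 0.0146, and 0.457 with collagen replicate 3, all by the quasi-likelihood test of edgeR, Benjamini-Hochberg adjusted). *MAOA*, for monoamine oxidase A, stood at 56.2, 45.6, 28.4 and 34.1 CPM and at 29.2, 24.6, 16.5 and 21.1 CPM (-0.99, adjusted p = 0.0104, and 0.239 with collagen replicate 3, edgeR as above).

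In lists of translation and respiration few genes passed, while most members had a fold change below 0. Of 77 tested nuclear subunits of oxidative phosphorylation 76 were below 0 (median -0.34) and 6 fell, with *COX6C* of cytochrome oxidase first (329, 361, 251 and 427 CPM with collagen, 271, 225, 221 and 235 CPM with DDR1i, -0.65, adjusted p = 0.00459). Of 77 mitochondrial ribosomal protein genes 76 were below 0 (median -0.34) and 4 fell, and of 85 tested cytosolic ribosomal protein genes 82 were below 0 (median -0.26) and 4 fell. All tested genes of the shortest transcript length class (1733 bases or fewer) had a median of -0.20, and with the length trend removed from each library the medians of these 3 lists were -0.20, -0.18 and -0.15. Ribosomal protein genes took 8.01 to 10.3% of the counts of the collagen libraries, with replicate 3 lowest, and 7.4 to 9.04% of those of the DDR1i libraries. Of 41 tested proteasome subunits 2 fell (median -0.23) and of 31 LSM and snRNP genes 3 fell (median -0.32). With collagen replicate 3, 0 members of these 5 lists passed. Among 26 genes of the ID and BMP-SMAD pathway (median 0.12) 1 rose and *ID1* fell, and among 24 genes of protein kinase A and its anchors (median 0.38) 1 rose. Of 23 histone genes (-0.04), 44 V-ATPase and cathepsin genes (-0.12) and 5 metallothionein genes (0.09) 0 passed. Cell cycle genes gave few calls: among 45 mitosis genes *MKI67*, for the proliferation marker Ki-67, rose (283, 335, 508 and 214 CPM with collagen, 397, 515, 444 and 522 CPM with DDR1i, 0.76, adjusted p = 0.00621) at a list median of -0.04, and of 49 DNA replication genes 0 passed (median -0.05). Of 32 interferon and antigen presentation genes (median 0.05), 29 glycolysis and hypoxia genes (-0.09) and 21 IL-1 and CXCL cytokine genes (-0.30) 0 passed. Among 26 p53 targets *PERP* fell (-0.54, adjusted p = 0.0196), and among 52 tested chromatin regulators with large transcripts 8 rose and 51 were above 0 (median 0.47). With collagen replicate 3 *MKI67* had an adjusted p of 0.493 and *PERP* one of 0.414, and 0 of the chromatin regulators passed, as was also so with the length trend removed (median 0.22, all adjusted p-values by quasi-likelihood test of edgeR, Benjamini-Hochberg adjusted).

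**Figure D3:**
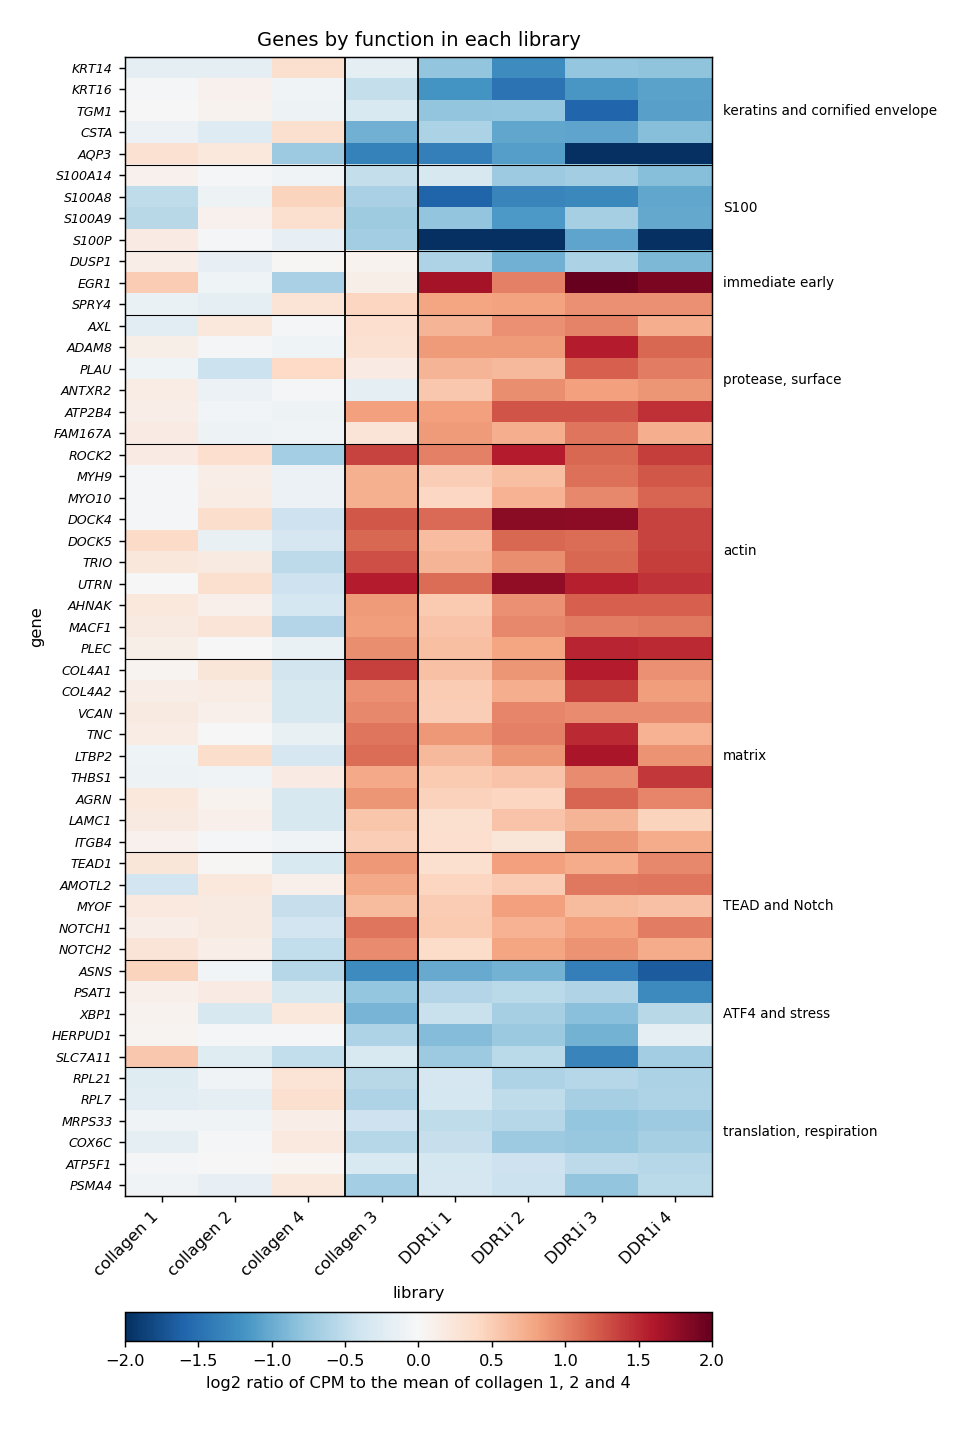
Log2 ratio of CPM to the mean of collagen replicates 1, 2 and 4 (colour, drawn between -2 and 2) for 53 genes (rows, grouped by function) in 8 libraries (columns). Collagen replicate 3 stands between the vertical lines. Its colours follow those of the DDR1i libraries for most actin, matrix and stress genes and those of the other collagen libraries for KRT14, DUSP1, ANTXR2 and EGR1.

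**Figure D4:**
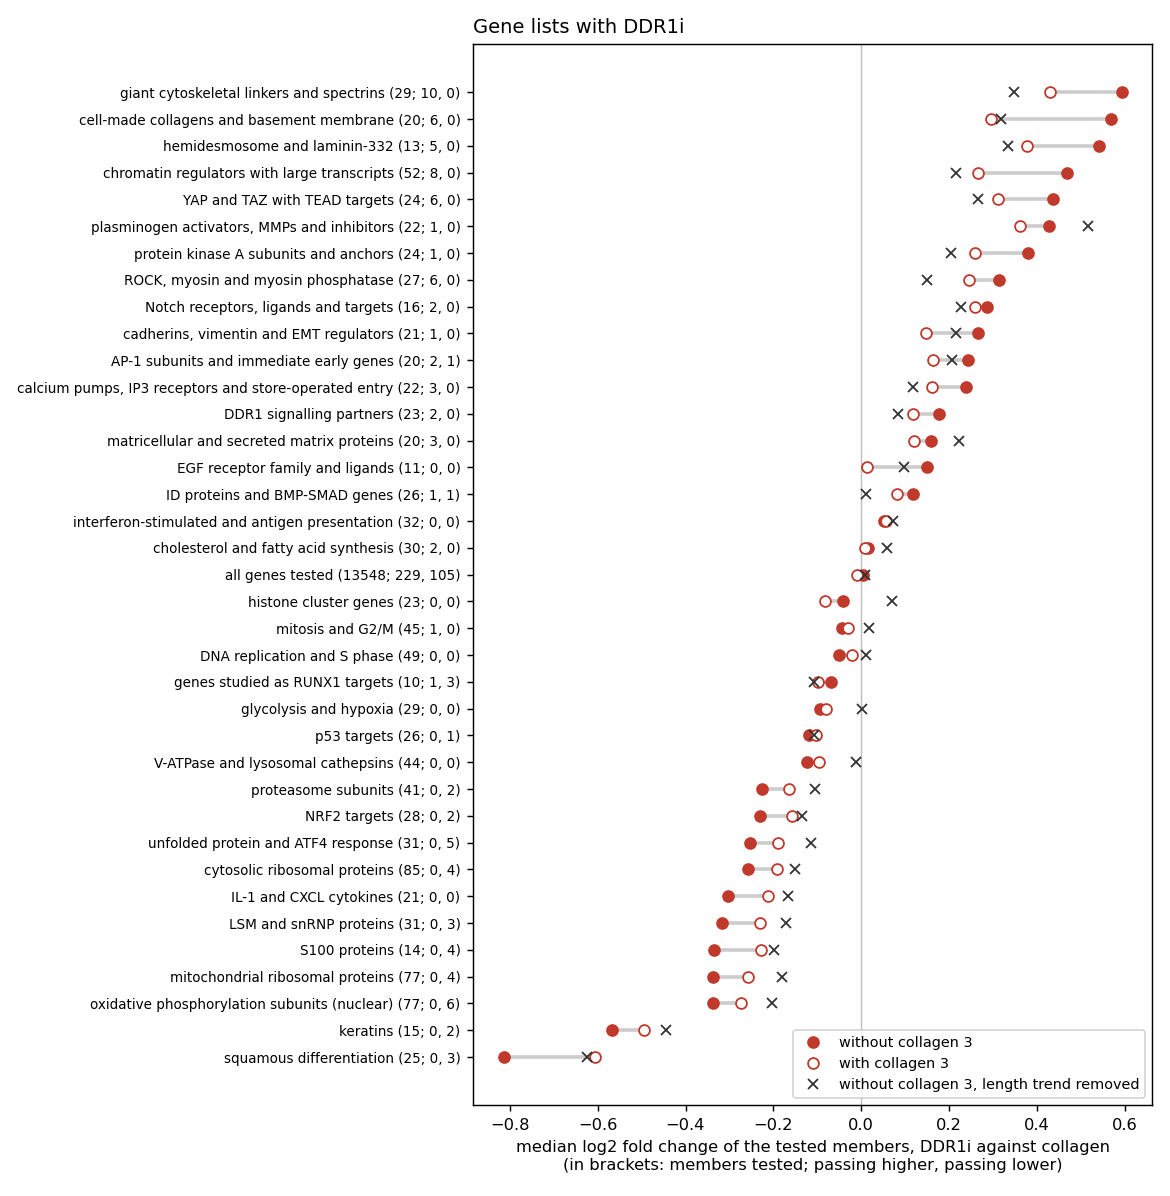
Median log2 fold change of DDR1i against collagen over the tested members of gene lists with at least 10 of them, without collagen replicate 3 (filled circles), with it (open circles) and without it with each library's length trend taken out (crosses). The cell type marker lists and the list of RhoGEF, RhoGAP and DOCK regulators are not drawn. The squamous and keratin lists lie lowest, at -0.81 and -0.57, and the medians of both stay below -0.4 in the 3 settings.

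Genes that rose had longer transcripts than genes that fell. Canonical transcripts had a median of 7610 bases among the 229 higher genes and of 1658 bases among the 105 lower ones, against 3258 bases over all tested genes with a length. Tested genes were divided by length into 5 classes of about equal size. In the longest class (5749 bases or more) 6.38% were higher and 0.154% lower with DDR1i, and in the shortest class (1733 bases or fewer) 0.115% and 2.08%. The longest class took 13.6, 13.2, 16 and 10.8% of the counts in collagen replicates 1 to 4, 13.6, 16.3, 15.9 and 15.6% in DDR1i replicates 1 to 4 and 14.7 to 16.5% in the controls without collagen. Collagen replicates 1, 2 and 4 had the lowest shares of the 16 libraries, together with DDR1i replicate 1, which equalled collagen replicate 1. With the length trend removed from each library, 58 genes were higher and 58 lower, 82 of them among the 334, and with collagen replicate 3 as well 7 were higher and 3 lower. *KRT14* (adjusted p = 0.0035), *KRT16* (0.004), *DUSP1* (0.0119), *AXL* (0.00364), *ATP2B4* (0.0035), *ADAM8* (0.00897) and *FAM167A* (0.0122) passed after that removal without collagen replicate 3, while *ANTXR2* (0.0583) and *EGR1* (0.0568) did not. Of the genes named above that had passed, *UTRN*, *ROCK2*, *DOCK4*, *DOCK5*, *AHNAK*, *COL4A1*, *COL4A2*, *VCAN*, *PLAU*, *SPRY4*, *CSTA*, *AQP3* and *TGM1* were among those that passed too, and *PLEC* (0.112), *ID1* (0.0694), *CEBPD* (0.0655), *MYH9* (0.0542), *NOTCH1* (0.0557), *ITGB4* (0.105) and *ASNS* (0.0557) among those that did not (all by the quasi-likelihood test of edgeR, Benjamini-Hochberg adjusted). Of all 89 genes that met the rule for naming and passed, 40 still passed after that removal (without collagen replicate 3) and 49 missed the threshold. What part length has in the change of any 1 gene was not tested.

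**Figure D5:**
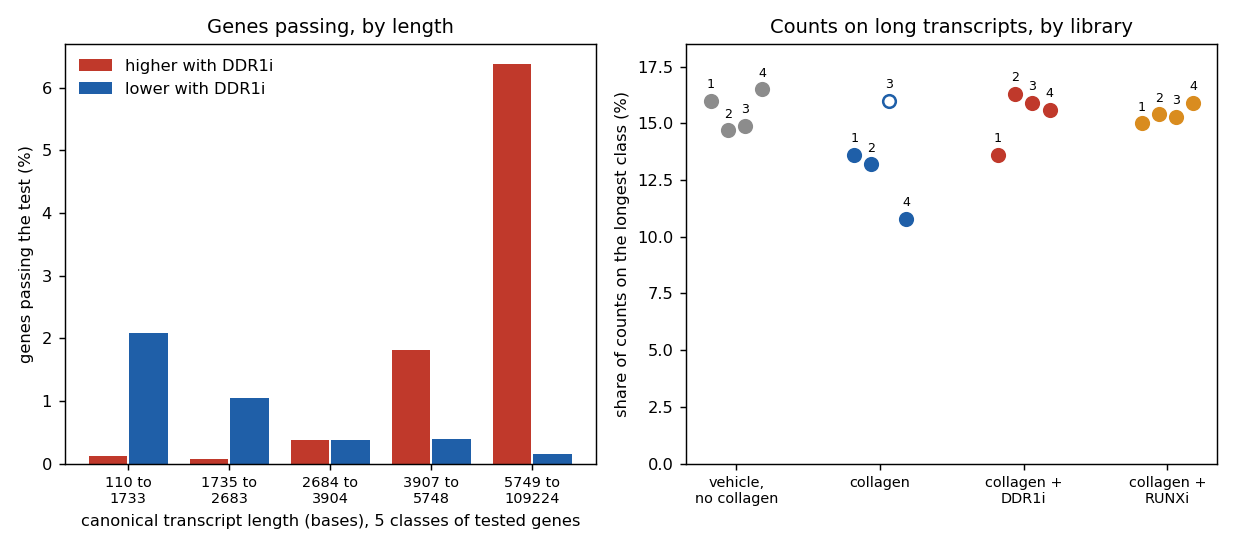
Left, percentage of tested genes that passed as higher or lower with DDR1i (without collagen replicate 3) in 5 classes of canonical transcript length. Right, share of each library's counts on the longest class, with replicate numbers beside the points and collagen replicate 3 open. The share of higher genes climbs from 0.115% to 6.38% across the classes, and collagen replicates 1, 2 and 4 and DDR1i replicate 1 hold the lowest shares on the right.

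DDR1i was also set directly against RUNXi in the same fit, which answers whether the 2 inhibitors gave different levels under collagen. The collagen libraries enter this comparison only through the shared estimate of spread. It gave 77 genes, 0.568% of those tested, of which 8 were among the 229 genes higher with DDR1i than with collagen and 6 among the 105 that were lower. *KRT14* stood at 4296, 3896, 4271 and 3670 CPM in RUNXi replicates 1 to 4, above every DDR1i library, a log2 difference of DDR1i minus RUNXi of -0.97 (standard error 0.12, adjusted p = 6.76e-05). *KRT16* stood at 89.9, 99.8, 132 and 63.7 CPM with RUNXi (-1.35, standard error 0.16, adjusted p = 2.82e-05) and *DUSP1* at 341, 359, 292 and 414 CPM (-0.55, standard error 0.12, adjusted p = 0.0235), again above every DDR1i library. *FAM167A* was lower with RUNXi, at 30.4, 35.6, 28 and 24.4 CPM (1.27, standard error 0.14, adjusted p = 1.46e-05), all below the DDR1i libraries. The difference also passed for *PLAU* (0.89, adjusted p = 0.00819), *TNC* (1.87, adjusted p = 1.46e-05), *VCAN* (0.57, adjusted p = 0.0392) and *DNMBP* (0.68, adjusted p = 0.029), which were higher with DDR1i, and also for *ASNS* (-1.0, adjusted p = 0.0477), *SLC7A11* (-1.22, adjusted p = 0.00201) and *AKR1C1* (-2.30, adjusted p = 7.8e-08), which were lower. Such a difference is not a change from collagen. Mean *AKR1C1* was 119.1 CPM with RUNXi, 38.9 CPM with collagen (without replicate 3) and 24.01 CPM with DDR1i. In the same order, means were 78.56, 58.03 and 33.6 CPM for *SLC7A11* and 13.02, 22.94 and 47.37 CPM for *TNC*. The collagen mean thus lay between the inhibitors for each of them. For *PLAU*, *VCAN*, *DNMBP* and *ASNS* the RUNXi mean lay between the collagen and DDR1i means. The difference of DDR1i minus RUNXi did not pass for *EGR1* (1.35, standard error 0.32, adjusted p = 0.184), nor for *ANTXR2* (0.52, standard error 0.14, adjusted p = 0.133), *AXL* (0.28, standard error 0.11, adjusted p = 0.651), *ADAM8* (0.31, standard error 0.18, adjusted p = 0.915) and *ATP2B4* (0.09, standard error 0.14, adjusted p = 0.999). The RUNXi libraries of *EGR1* (83.8 to 130 CPM), *ANTXR2* (35.8 to 46.3 CPM) and *AXL* (136 to 149 CPM) were all below the lowest DDR1i library, and those of *ADAM8* and *ATP2B4* overlapped the DDR1i libraries. For these 5 genes a missed threshold does not show that the inhibitors act alike (all by the quasi-likelihood test of edgeR, Benjamini-Hochberg adjusted).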

How the data were processed

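Total RNA of MCF10A cells was sequenced by the authors as 150-bp read pairs and aligned with STAR to GRCh37 (hg19), and the deposited table holds raw counts per gene symbol for 16 libraries. The counting tool, annotation and strand setting are not given in the sources used here. The authors tested with DESeq2 and left out collagen replicate 3 after a principal component analysis.

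The deposited counts were filtered with filterByExpr, scaled by TMM and fitted with edgeR 4.0.16 (robust quasi-likelihood, limma 3.58.1, R 4.3.3) over 11 libraries: collagen replicates 1, 2 and 4, DDR1i 1 to 4 and RUNXi 1 to 4, with no covariate. Genes passed at a Benjamini-Hochberg adjusted p under 0.05 over all genes tested. The biological coefficient of variation was 0.287. Library totals were 12184619 to 44332378 counts, and no pair of replicates agreed within sampling noise (lowest chi-square per degree of freedom 18.32). Alternatives were collagen replicate 3, DESeq2 1.42.0, other filters, scalings and groups, a replicate block, removal of length or GC trends, and leaving out each library; DESeq2 and the length trend with collagen replicate 3, and the alternatives to the count with that library, were chosen after seeing the data. Gene lengths (GENCODE 44) matched 12997 tested genes by symbol, and 28 date-like symbols were not named. The scripts were tested on simulated data.

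Genes eligible for values of their own were those of the DDR1 and RUNX1 question, the 12 genes in each direction ranking first by adjusted p, those passing with collagen replicate 3, and up to 4 members per list and direction. Some items are not reported here. The members and lists were chosen with earlier results of these data known.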

Additional observations from a re-analysis of the deposited data

Results flagged for a closer look

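Among 260 groups of 4 libraries (the named genes and library totals in the collagen and DDR1i groups), 14 held a library that stood apart from the other 3, its gap to the nearest exceeding Dixon's critical share of the group's range, which is 5.38% of the groups. Chance alone gives about 1 in 20. Collagen replicate 3 was that library in 5 of them. It was highest for *DDR1* (151 CPM, median of the others 129), *PLEC* (1780, others 938), *MYO9B* (105, others 68.0) and *SMAD3* (48.7, others 31.5), and lowest for *LSM5* (63.0, others 105). Collagen replicate 4 was highest for *KRT14* (4760 CPM, others 3350) and for *HIST1H2BN* (0.0401 CPM, the others at 0). Collagen replicate 1 was highest for *CBFB* (74.7 CPM, others 67.8) and had the lowest total (17570707 counts, others 27000000).

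DDR1i replicate 1 was lowest for *VCAN* (93.2 CPM, others 129) and highest for the ribosomal protein genes *RPL21* (750, others 614) and *RPSA* (1140, others 916). DDR1i replicate 2 was lowest for *KRT14* (1590 CPM, others 2210), and DDR1i replicate 4 for *PSAT1* (93.6, others 152).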

How the results depend on the processing

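For DDR1i against collagen, the 334 genes became 9 with collagen replicate 3, 143 with 2 groups in the fit, 2 with 2 groups and collagen replicate 3, 819 by DESeq2, 40 by DESeq2 with collagen replicate 3, 755 without a filter on low counts, 116 (58 higher, 58 lower, against 229 and 105) with the length trend removed, 10 with that removal and collagen replicate 3, and 2442 at an unadjusted p under the threshold. Leaving out 1 library gave 60 to 662 genes. DESeq2 size factors (344), at least 10 counts in every library (380), removal of the GC trend (463), no robust step (308) and all 4 groups (233) stayed within 1.5 times. The 9 genes with collagen replicate 3 became 40 by DESeq2, 2 with 2 groups, and 2 to 11 when 1 library was left out. DDR1i against RUNXi gave 77 genes, 136 by DESeq2 and 53 to 109 when 1 library was left out. The log2 fold change of *DDR1* (-0.02) changed sign without DDR1i replicate 2 and ranged from -0.0996 to 0.0429 when 1 library was left out, never past the threshold. Except where an alternative uses fewer libraries, the cause was not tested. Between 16173156 and 27695778 counts per library, genes below the count filter were not tested.

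With the replicate number as a block, 537 genes passed without and 73 with collagen replicate 3, and 154 for DDR1i against RUNXi. Same-numbered collagen and DDR1i libraries correlated in their deviations at -0.0317, 0.119 and 0.236 (0.0674, 0.0968, 0.178 and 0.208 with collagen replicate 3). Pairs with different numbers ranged from -0.237 to 0.116 without that library and from -0.319 to 0.155 with it. Not every collagen library correlated best with its own number: replicate 1 did so with DDR1i replicate 2. Nothing in the labels says whether same-numbered libraries were handled together, and this was not tested.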
